A study of Homo sapiens with 3 samples.

Results

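The genes for the receptors of glutamate and GABA were examined in chromatin of THP1, a human monocytic leukaemia line, in wild-type cells treated for 24 h with PMA, a phorbol ester under which they take on macrophage features. The members are the protein-coding genes of hg38 whose symbols match GRIA, GRID, GRIK or GRIN with a number, GRM with a number up to 8, GABR with a subunit letter, or GABBR1 and GABBR2. This rule found 48 of the 20037 protein-coding genes on chromosomes 1 to 22, X and Y. It also matched GRID2IP, which encodes delphilin, a scaffold of the delta receptor and not a receptor itself; GRID2IP is kept in the counts and named wherever it contributes. Chromatin was immunoprecipitated with an antibody to acetylated lysine 27 of histone H3 (H3K27ac) in 1 library and with an antibody to the deacetylase SIRT1 in 1 library. An input library, made without antibody, was not analysed here. As each antibody has 1 library, no value below has a replicate check, no test was made and no p-value is given, and the intervals are 95% exact binomial or Poisson intervals that cover counting error only.

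Glutamate is the main excitatory transmitter of the brain and GABA the main inhibitory one. Ionotropic glutamate receptors (AMPA, kainate, delta and NMDA types) and GABA-A receptors are ion channels built of several subunits, whereas metabotropic glutamate receptors and GABA-B receptors act through G proteins. Most of these genes are used mainly by neurons, many of them span very long records, and several GABA-A subunit genes lie side by side in clusters. H3K27ac marks active promoters and enhancers, and SIRT1 removes acetyl groups from histones and other proteins in an NAD-dependent reaction.

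On the primary chromosomes there were 48735 peaks for H3K27ac and 95517 for SIRT1. Of 15 macrophage and monocyte markers, 8 had an H3K27ac summit within 1 kb of a gene end (53.3%), a share near the 53.0% of all protein-coding genes, among them SPI1 at a fold of 109 and CEBPB at 92.2. When any overlap of the peak with that window counted, it was 11 of the 15, against 56.7% of all protein-coding genes. CD163, MRC1, LYZ and CD36 had none by either count. The mark was at 0 of 4 T cell markers, 1 of 4 B cell markers (CD79A), 2 of 9 astrocyte and oligodendrocyte markers and 3 of 10 neuron markers, which were TUBB3, SNAP25 and SYN1. A fold is the authors' value, taken as the height at the summit plus 1 over the background plus 1. The folds of the 2 lists are not comparable. A peak seen in bulk chromatin does not tell a weak mark in all cells from a strong mark in few.

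Almost all receptor genes lacked H3K27ac at their ends. A peak was counted at a gene end when its summit lay within 1 kb of the first or last base of the gene record, on either side. H3K27ac lay at an end of 2 of the 48 genes, or 4.17% (0.509 to 14.3), whereas 53.0% of all protein-coding genes had it. Among records of 300 kb and over it was 1 of 17, against 37.5% of all genes of that length. From 100 to 300 kb it was 0 of 9, against 55.9%. From 30 to 100 kb it was 1 of 13, against 62.1%, and under 30 kb 0 of 9, against 49.0%. The marked genes were GRIK2 and GRIN2D; the other 46 had no summit at either end. Both still counted with windows of 500 bp and of 2500 bp and when any overlap of the peak with the window counted, and no further member was added. Among the 20000 strongest H3K27ac peaks, 0 of the 48 genes had one at an end, against 8801 of the 20037. Neither peak lay within 1 kb of an end of another protein-coding gene.

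The nearest H3K27ac summit lay a median of 99.2 kb from an end of a receptor gene, against 0.719 kb for all protein-coding genes. In 24 of the 48 receptor genes (50%) it was over 100 kb away, against 10.9% of all genes. GABRA5, which encodes the alpha5 subunit of the GABA-A receptor, lay farthest, with 932956 bp to the nearest summit, followed by the metabotropic receptor gene GRM7 with 887834 bp. Just outside the 1 kb window there was nothing either: after GRIN2D at 148 bp and GRIK2 at 286 bp, the next were GRM2 at 3184 bp and GABRR2 at 3922 bp.

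**Figure D1:**
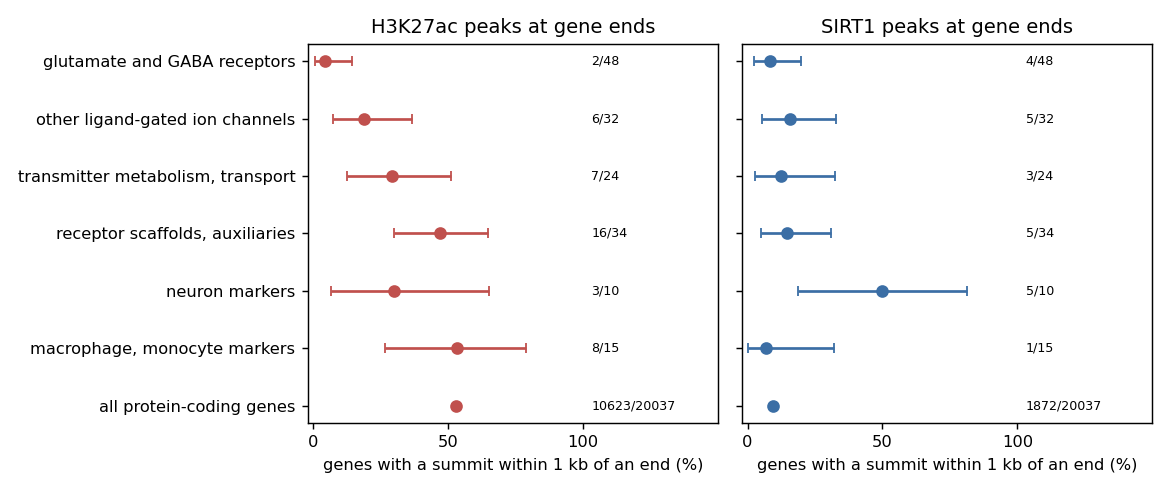
Share of genes with a peak summit within 1 kb of a gene end (x axis, %) for H3K27ac (left) and SIRT1 (right); points are shares, bars 95% exact binomial intervals, and the numbers at the right are genes with a summit over genes in the list. The receptor genes stand at 2 of 48 for H3K27ac, against 10623 of 20037 for all genes, and at 4 of 48 for SIRT1, against 1872 of 20037.

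At GRIK2, which encodes the kainate receptor subunit GluK2 (chromosome 6, 101393708 to 102070083, plus strand), the H3K27ac peak at the start ran from 101393473 to 101394226. Its fold was 8.26 on 15 recovered fragments, and its summit lay 286 bases downstream of the annotated start. A further 5 summits lay inside the record. Of these, 3 stood 88.7 to 90.2 kb from the start with folds of 6.45, 4.13 and 3.61, and 2 stood 367 and 369 kb from it with folds of 10.8 and 12.9. GRIK2 thus carried the mark at its start and at 2 places deep within the gene, while the 1 Mb on either side of the record held 1 H3K27ac summit per Mb.

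GRIN2D, which encodes the NMDA receptor subunit GluN2D (chromosome 19, 48393668 to 48444931, plus strand), had its gene-end peak at the far end, 148 bp from the end of the record, with a fold of 4.96 on 9 fragments. Its own start had no summit within 1 kb. The strongest H3K27ac peak of all 48 genes lay 5.83 kb downstream of that start, from 48397972 to 48399756, with a fold of 23.9 on 77 fragments. Another summit stood at 31.2 kb with a fold of 12.2, and 3 more at 20.6, 24.96 and 29.96 kb had folds of 3.96, 6.20 and 4.31. Of the 48 genes GRIN2D had the highest H3K27ac density inside its record, 101 summits per Mb (33.0 to 237) on 5 summits, and it lies in a stretch with 51.0 per Mb on either side; it had no SIRT1 summit at an end or inside.

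**Figure D2:**
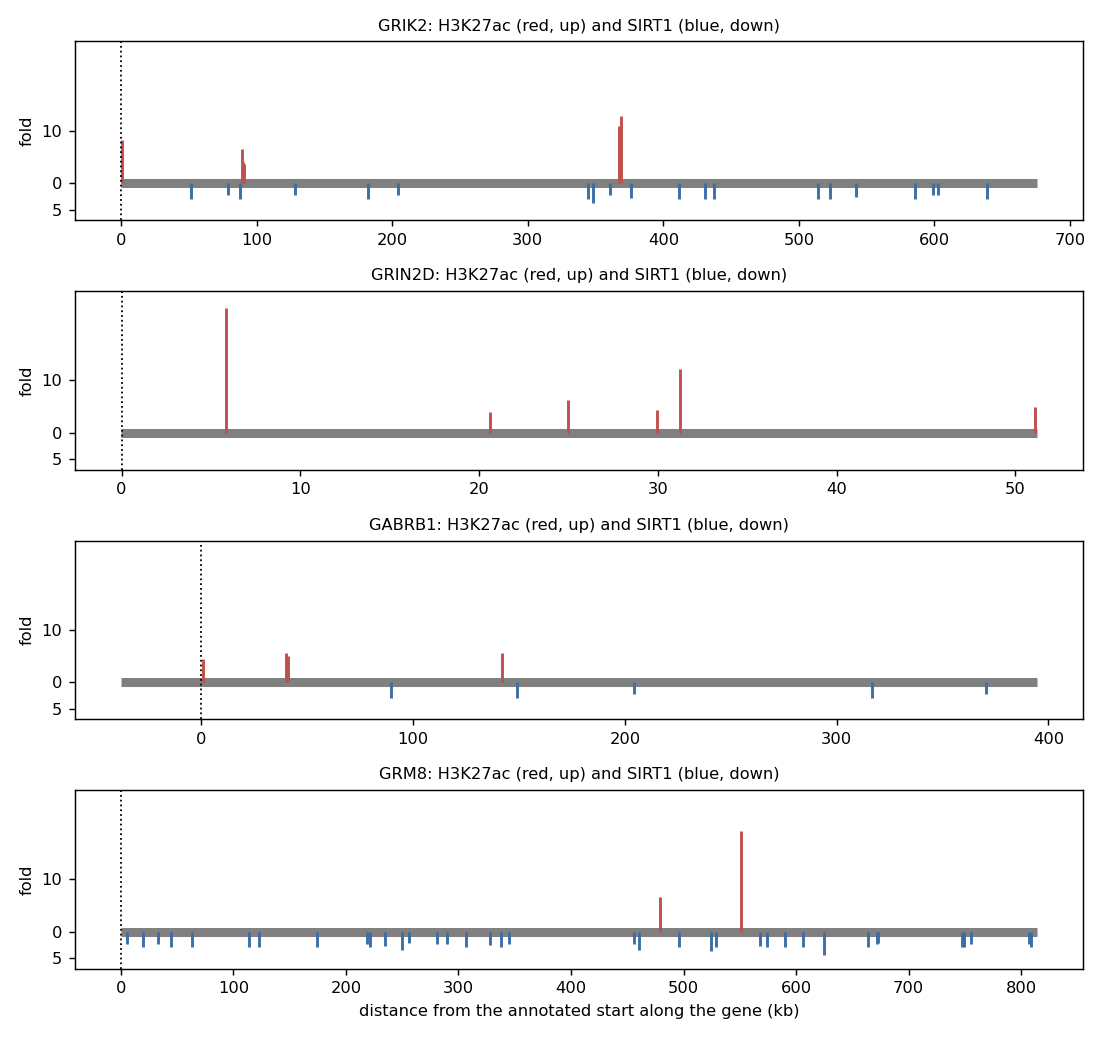
Maps of GRIK2, GRIN2D, GABRB1 and GRM8, with distance from the annotated start in kb on the x axis and the grey bar as the gene record; red lines upward are H3K27ac summits and blue lines downward SIRT1 summits, with height as fold over the background of their own list. GRIK2 has H3K27ac at its start and at 2 places within the gene, GRIN2D has 6 H3K27ac and 0 SIRT1 summits, and GRM8 has 37 SIRT1 and 2 H3K27ac summits.

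A start and strand were matched in RefSeq (GRCh38.p14) for 35 of the 48 genes, with 53 starts in all. For the other 13 only the gene record was used, among them GABRA3, GABRA5, GABRD, GRIA3, GRID1, GRIK1, GRIN1 and GRIN2C. H3K27ac summits lay within 1 kb of a start in 2 of the 35 genes, against 57.4% of the 15843 protein-coding genes with a start. They were GRIK2 and GABRB1, which encodes the GABA-A beta1 subunit. The listed GABRB1 start lies inside the record, and the peak from 47032248 to 47032639 had its summit 850 bases downstream of it with a fold of 4.41 on 12 fragments.

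Many of the unmarked starts were rich in CpG, as are the promoters of many genes used across tissues. In the 250 bases before a start the receptor genes held a median of 9 CpG (1 to 44 over 53 starts), against 16 for all 22183 starts, and their median GC content was 62.4%, against 62.0%. Among starts with 15 or more CpG, 1 of 20 receptor starts had an H3K27ac summit within 1 kb, whereas 73.7% of all such starts did. With 5 to 14 CpG it was 1 of 23, against 42.2%, and with 0 to 4 CpG it was 0 of 10, against 12.7%. The receptor share was the lower in each class; starts of the same gene share their surroundings and are not independent.

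**Figure D3:**
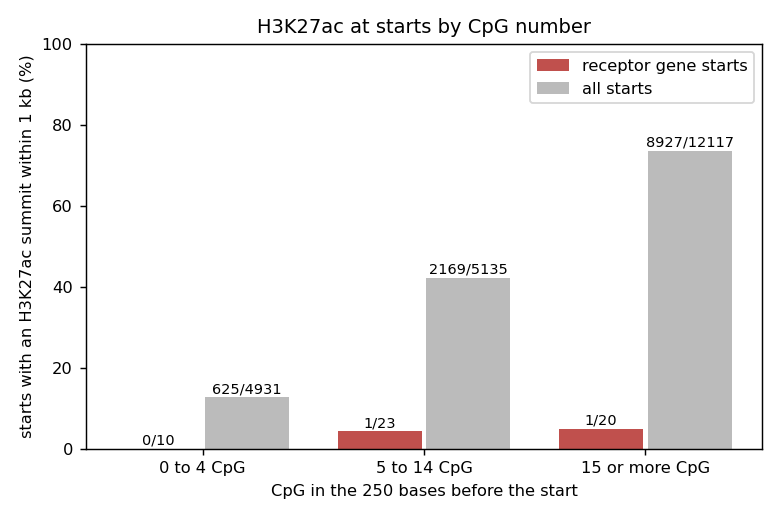
Share of annotated starts with an H3K27ac summit within 1 kb (y axis, %) by the number of CpG in the 250 bases before the start (x axis); red bars are receptor gene starts, grey bars all starts, and the numbers above are starts with a summit over starts in the class. The receptor bars stand at 0 of 10, 1 of 23 and 1 of 20, each below the grey bar of its class.

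The 250 bases before the start of 5 genes are printed 5′ to 3′ from RefSeq, GRCh38.p14, to set marked and unmarked starts side by side; GRM2, GABRR1 and GRIK5 were chosen after their values were seen. GRIK2 (chr6:101393458-101393707, plus strand) and GABRB1 (chr4:47031317-47031566, plus strand) have H3K27ac within 1 kb of the start. GRM2 (chr3:51706818-51707067, plus strand), a metabotropic receptor gene, has a CpG-rich start and no peak. GABRR1 (chr6:89217778-89218027, minus strand; inside the gene record) and GRIK5 (chr19:42070207-42070456, minus strand) have SIRT1 within 1 kb of the start. Capitals mark matches on either strand to the GC box GGGCGG, the AP-1 site TGANTCA, the ETS core GGAAGT, the cyclic AMP element TGACGTCA, the TATA box TATAAA and TTCAGCACC, the left part of the element bound by REST, a repressor of neuronal genes.
GRIK2: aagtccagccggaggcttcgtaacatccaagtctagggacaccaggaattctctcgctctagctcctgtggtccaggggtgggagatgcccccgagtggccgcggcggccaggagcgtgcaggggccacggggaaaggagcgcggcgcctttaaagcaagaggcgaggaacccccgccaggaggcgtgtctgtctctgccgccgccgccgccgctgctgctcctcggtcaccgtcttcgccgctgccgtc
GABRB1: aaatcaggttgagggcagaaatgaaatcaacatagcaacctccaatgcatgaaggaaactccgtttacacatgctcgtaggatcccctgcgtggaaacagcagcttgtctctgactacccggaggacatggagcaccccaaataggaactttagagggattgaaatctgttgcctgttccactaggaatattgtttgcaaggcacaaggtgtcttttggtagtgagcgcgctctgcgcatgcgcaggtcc
GRM2: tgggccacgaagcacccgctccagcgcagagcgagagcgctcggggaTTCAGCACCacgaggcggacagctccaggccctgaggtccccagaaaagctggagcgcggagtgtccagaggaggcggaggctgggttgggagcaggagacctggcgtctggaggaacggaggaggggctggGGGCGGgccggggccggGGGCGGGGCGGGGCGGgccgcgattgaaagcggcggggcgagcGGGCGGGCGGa
GABRR1: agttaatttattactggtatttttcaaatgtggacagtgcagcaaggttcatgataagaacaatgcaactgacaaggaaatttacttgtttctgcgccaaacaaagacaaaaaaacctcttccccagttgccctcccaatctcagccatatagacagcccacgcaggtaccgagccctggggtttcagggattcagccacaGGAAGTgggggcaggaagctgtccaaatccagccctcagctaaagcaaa
GRIK5: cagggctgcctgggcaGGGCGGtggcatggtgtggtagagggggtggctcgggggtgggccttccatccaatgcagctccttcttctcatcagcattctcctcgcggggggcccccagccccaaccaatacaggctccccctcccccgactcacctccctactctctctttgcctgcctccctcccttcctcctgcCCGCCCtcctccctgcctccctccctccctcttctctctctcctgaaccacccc

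The GRIK2 stretch held 25 CpG and none of these motifs, and nearly all of it lay under the H3K27ac peak. The GABRB1 stretch held 8 CpG and none of the motifs. The GRM2 stretch held 27 CpG, 6 GC boxes, of which some overlap, and 1 copy of the left part of the REST element. GABRR1 held 3 CpG and 1 ETS core, and GRIK5 held 6 CpG and 2 GC boxes. Over all receptor starts the GC box was found in 23 of 53 (43.4%), against 53.7% of all starts, and the ETS core in 3 of 53 (5.66%), against 20.5%. The left part of the REST element was found at 2 receptor starts, of GRM2 and GRIA2, or 3.77%, against 0.261% of all starts. AP-1 matches stood at 4 receptor starts (7.55%, against 5.35%), TATA boxes at 4 (7.55%, against 9.01%) and the cyclic AMP element at 1 (1.89%, against 2.02%). A match is a string of letters and shows no binding.

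Inside the records, more than 1 kb from both ends, H3K27ac was found in 14 of the 48 genes (29.2%, 17.0 to 44.1), against 32.0% of all protein-coding genes. The receptor genes are much longer, with a median record of 146 kb against 24.1 kb, so like lengths were set side by side. Among records of 300 kb and over, 8 of 17 receptor genes had an internal H3K27ac summit (47.1%), against 59.9% of 773 genes. From 100 to 300 kb it was 1 of 9 (11.1%), against 56.6% of 2583. From 30 to 100 kb it was 5 of 13 (38.5%), against 42.4% of 5484, and under 30 kb it was 0 of 9, against 19.4% of 11197.

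Summits per length showed a wider gap. The 48 records held 33 internal H3K27ac summits in 12.5 Mb, or 2.64 per Mb (1.82 to 3.71), against 17.8 per Mb in all genes. At 300 kb and over the density was 2.15 per Mb (1.33 to 3.29), against 8.34 for all genes of that length, and from 100 to 300 kb it was 0.551 (0.0139 to 3.07), against 18.1. From 30 to 100 kb the difference was smaller, 14.4 per Mb (7.18 to 25.7) against 24.7, with 5 of the 11 summits in GRIN2D. Peaks in overlapping genes count once for each gene. The surroundings were poorer in the mark than the chromosomes as a whole, with a length-weighted 11.0 per Mb in the 1 Mb on either side of the receptor genes and 14.9 per Mb as the mean of their chromosomes. Among the 26 receptor genes of 100 kb and over the internal count was 0.184 of what the flanks would give, against 0.749 for all 3356 genes of 100 kb and over. Of the 26, 17 were of 300 kb and over, against 773 of the 3356, so lengths were not matched here.

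The glutamate receptor genes with internal H3K27ac were spread over every family. Among AMPA receptor genes, GRIA4 had 2 summits 109 and 110 kb from its start with folds of 6.71 and 5.16, while GRIA1, GRIA2 and GRIA3 had 0. Besides GRIK2, the kainate receptor gene GRIK1 had 1 wide peak of 2988 bp, chromosome 21, 29655588 to 29658575, whose fold was 22.7 on 43 fragments. Its summit was also within 1 kb of an end of the noncoding gene GRIK1-AS3. GRIK3, GRIK4 and GRIK5 had 0.

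GRID1, a delta receptor gene, had 1 internal summit with a fold of 5.22 in 767 kb. Of the other NMDA receptor genes, GRIN3A had 1 with a fold of 3.91, and GRIN1, GRIN2A, GRIN2B, GRIN2C and GRIN3B had 0. The metabotropic receptor gene GRM8 had 2, of which 1 lay 551 kb from the start with a width of 3388 bp and a fold of 19.3; the other had a fold of 6.71. GRM2, GRM3, GRM4, GRM5, GRM6 and GRM7 had 0. GRID2IP had 2, with folds of 6.30 and 3.34, both within 1 kb of an end of the noncoding gene LOC101927325.

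Among GABA receptor genes, GABRB1 had 4 internal summits with folds of 4.41 to 5.66, and GABRA4 had 1 with a fold of 7.40. The rho subunit gene GABRR2 had 2 with folds of 5.72 and 6.08, the nearer 3.92 kb from its start. GABBR2, which encodes the GABA-B subunit that couples to the G protein, had 3 with folds of 8.01, 5.22 and 7.40. Among the GABA-A genes with 0 were GABRA2, GABRA3, GABRA5, GABRA6, GABRB2, GABRG1, GABRG3, GABRR1, GABRR3 and the genes for the delta, epsilon, pi and theta subunits, GABRD, GABRE, GABRP and GABRQ. GABBR1, which encodes the GABA-B subunit that binds GABA, also had 0.

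SIRT1 summits lay at an end of 4 of the 48 genes, or 8.33% (2.32 to 20.0), against 9.34% of all protein-coding genes, so the share was close to that of all genes. With a window of 2500 bp it was 17 of 48 (35.4%), against 4342 of 20037 (21.7%), so the receptor share was then the higher; with a fold of at least 4 it was 0, against 28. Among the marker lists, SIRT1 lay at 5 of 10 neuron markers, 2 of 9 astrocyte and oligodendrocyte markers, 1 of 15 macrophage and monocyte markers, and 0 of 4 T cell and 0 of 4 B cell markers. SIRT1 peaks rest on little: of the 563 SIRT1 peaks at an end or inside a receptor gene, 240 had 2 fragments at the summit, 247 had 3, and 1 reached a q of 0.05. The whole list was alike. Of all 95517 SIRT1 peaks, 84.4% had 2 or 3 fragments, against 86.5% of the 563, and 136 reached that q. At GRIK5, the kainate receptor subunit GluK5 (chromosome 19, minus strand), the peak from 42069786 to 42070060 had a fold of 3.67 on 4 fragments and its summit 207 bases downstream of the start; it also lies within the record of ZNF574. At GRM7 the summit lay 767 bases downstream of the start with a fold of 2.94 on 3 fragments. GRIN2B had a peak on 2 fragments 584 bp from the end opposite its start. GABRD had 2, with folds of 2.20 and 2.58, at 576 and 483 bp from 1 end of its record. Just outside the window was GABRA4 at 1011 bp.

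By annotated starts 4 of 35 genes (11.4%, 3.20 to 26.7) had a SIRT1 summit within 1 kb, against 4.28% of the 15843 genes with a start. Besides GRIK5 and GRM7 they were GABRP, the pi subunit gene, at 431 bases downstream on 2 fragments, and GABRR1, a rho subunit gene, on 3 fragments, with its summit 430 bases downstream of 1 listed start inside the record and 11 bases downstream of the other. The GABRR1 peak, from 89217191 to 89217899, reached into the printed stretch. The interval of the receptor share included the 4.28% of all genes. Among starts with 0 to 4 CpG, 3 of 10 receptor starts had SIRT1, against 6.31% of all such starts. Of these 3, 2 are the starts of GABRR1, which share 1 peak. With 5 to 14 CpG it was 2 of 23, against 4.97%, and with 15 or more 0 of 20, against 1.65%. No gene had both marks at an end, where 3.39% of all genes did.

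Inside the records SIRT1 followed gene length. It was found in 41 of the 48 genes (85.4%, 72.2 to 93.9), against 48.0% of all protein-coding genes. Every receptor gene of 100 kb and over had it, against 94.5% of all genes from 100 to 300 kb and 99.9% at 300 kb and over. From 30 to 100 kb it was 10 of 13 (76.9%), against 72.7%. Under 30 kb it was 5 of 9 (55.6%, 21.2 to 86.3), against 21.5%, where the receptor genes were also longer, with a median of 17.0 kb against 9.8 kb. Across the 48 genes the number of internal SIRT1 summits and the record length had a Spearman rho of 0.894, given as a description; longer records offer more room in 1 shared library. For H3K27ac the same rho was 0.287. The 7 genes with no internal SIRT1 summit were GABBR1, GABRD, GABRE, GABRR2, GRIN2C, GRIN2D and GRIN3B, the longest of them GABRR2 at 60.8 kb.

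**Figure D4:**
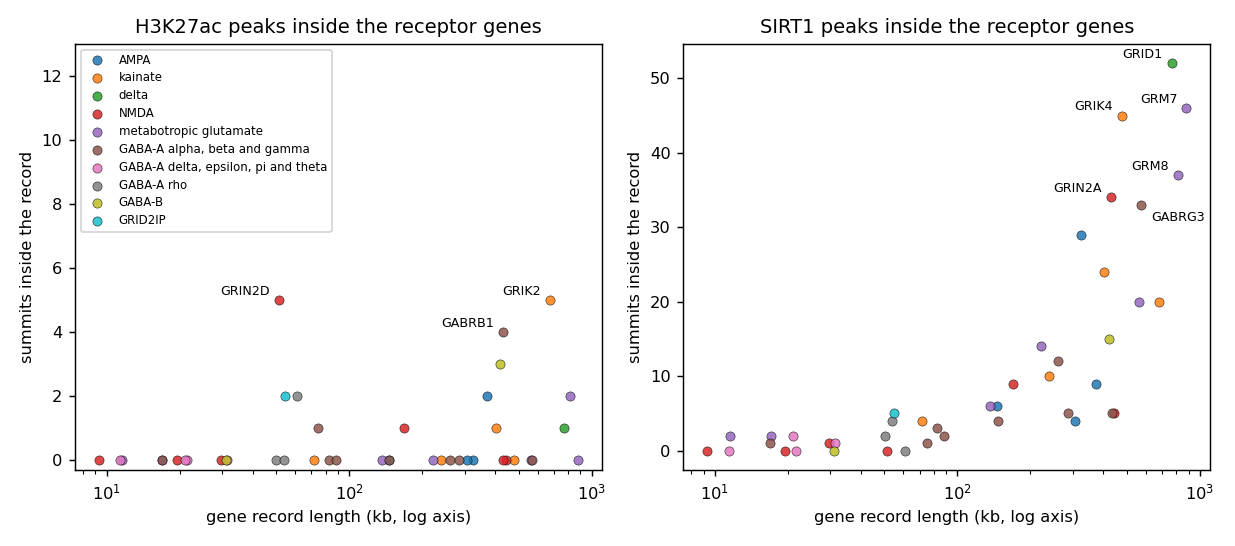
Number of summits inside the record (y axis) against record length in kb (x axis, log scale) for H3K27ac (left) and SIRT1 (right) in 43 of the 48 genes, coloured by receptor family. SIRT1 counts climb with length to 52 in GRID1, while H3K27ac stays at 5 or fewer at all lengths.

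GRID1 had the most internal SIRT1 summits, 52, with GRM7 at 46, GRIK4 at 45 and GRM8 at 37. GRIN2A had 34, GABRG3 33, GRIA1 29, GRIK1 24, and GRIK2 and GRM5 20 each. Peaks on 5 fragments lay in GRM5, GRM7, GRM8 and GRIA4, with folds of 4.17 to 4.41 and a −log10 q of 0.614 each.

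In records of 100 kb and over, the receptor genes held more SIRT1 summits per Mb than all genes of the same length class, though from 100 to 300 kb the receptor genes were also longer, with a median of 221 kb against 149 kb. At 300 kb and over there were 442 in 9.76 Mb, or 45.3 per Mb (41.1 to 49.7), against 37.1 (36.6 to 37.7) for all 773 genes. From 100 to 300 kb the density was 44.6 per Mb (35.4 to 55.4), against 30.1 (29.6 to 30.6). From 30 to 100 kb it was 35.3 (23.3 to 51.3), against 29.7, and under 30 kb 8 summits gave 57.2 (24.7 to 113), against 29.3, and both of these intervals include the value of all genes. Of the 17 genes of 300 kb and over 11 lay above the median of all genes of that length, and of the 9 genes from 100 to 300 kb 8 did. The intervals treat summits as independent, and the density was uneven among genes. For SIRT1 peaks on at least 4 fragments the density was 6.61 per Mb (3.41 to 11.5) from 100 to 300 kb, against 4.37, and 5.84 (4.42 to 7.56) at 300 kb and over, against 5.37, where both intervals include the value of all genes. Among the 20000 strongest peaks it was 8.26 per Mb (4.62 to 13.6) from 100 to 300 kb, against 5.95, and 9.83 (7.96 to 12.01) at 300 kb and over, against 8.09, so that within each length class the interval included the value of all genes. With both classes pooled, the 20000 strongest peaks gave 9.59 per Mb (7.89 to 11.5), against 7.04, an interval that excluded the value of all genes. Peaks on at least 4 fragments gave 5.96 (4.64 to 7.54), against 4.88, an interval that included it. Lengths are not matched in the pooled values, as a larger part of the receptor genes is of 300 kb and over.

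Among the 26 long genes the density varied widely. It was highest in GRIK4 at 94.7 per Mb (69.1 to 127), then GRIA1 at 90.0 (60.3 to 129), GRIN2A at 79.5 (55.1 to 111) and GRID1 at 68.0 (50.8 to 89.1). It was lowest in GRIN2B at 11.3 (3.67 to 26.4), GABRB1 at 11.6 (3.77 to 27.1) and GRIA3 at 13.1 (3.58 to 33.6). In the 1 Mb on either side, GRIK4 had 57.0 per Mb and GRIA1 47.0, GRIN2B 9 and GRIA3 8. Over the 26 genes the Spearman rho between the gene and its flanks was 0.680, a description of neighbouring stretches in 1 library.

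The gene exceeded its flanks in 19 of the 26, or 73.1%, against 44.3% of all 3356 genes of 100 kb and over. The lower bound of the interval lay above the flanks in 6, which were GRIK4, GRIA1, GRIN2A, GRID1, GRIK1 and GABRG3 (23.1%, against 5.54%). The upper bound lay below the flanks in GABRB1, where the flanks had 36.5 per Mb. Summed over the 26 genes the count was 1.22 times that at flank density, against 1.01 for all genes of 100 kb and over, and flanks of clustered genes hold other receptor genes. Lengths were not matched in these flank comparisons. Of the 26 receptor genes 17 were of 300 kb and over, against 773 of the 3356, and longer records give narrower intervals. By family the density ran from 33.5 per Mb in GABA-B genes (18.7 to 55.3) to 55.5 in kainate genes (45.3 to 67.3), intervals that overlap, leaving out GRID2IP with 5 summits.

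**Figure D5:**
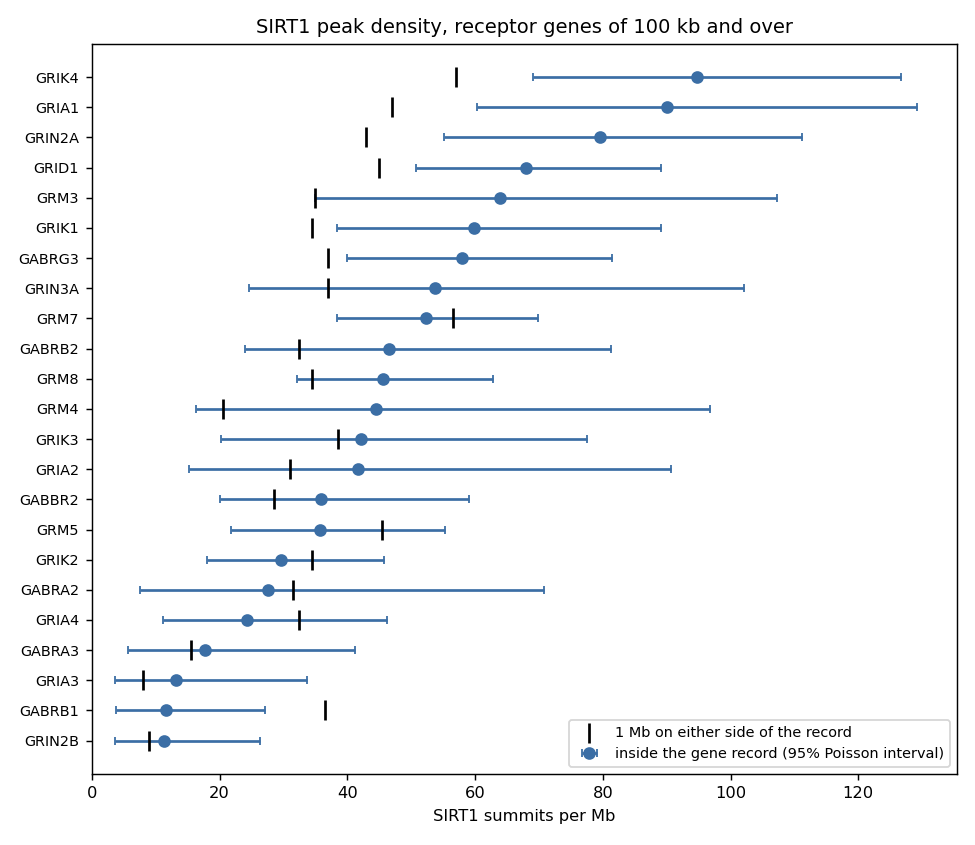
SIRT1 summits per Mb (x axis) inside 23 of the 26 receptor gene records of 100 kb and over, points with 95% Poisson intervals, and in the 1 Mb on either side of the record (black ticks). GRIK4 is highest at 94.7 per Mb and GRIN2B lowest at 11.3, and the tick lies below the point in 17 of the 23 genes drawn.

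Several GABA-A subunit genes lie in clusters. The chromosome 4 cluster of GABRG1, GABRA2, GABRA4 and GABRB1 (46035769 to 47426447) held 6 H3K27ac summits, or 4.31 per Mb (1.58 to 9.39), and 41 SIRT1 summits, or 29.5 per Mb (21.2 to 40.0). The cluster of GABRE, GABRA3 and GABRQ on chromosome X (151953124 to 152658965) held 0 and 10, or 14.2 SIRT1 summits per Mb (6.79 to 26.1), on a chromosome with 9.70 per Mb in all. The rho pair GABRR1 and GABRR2 on chromosome 6 held 2 and 6, with H3K27ac only in GABRR2 and internal SIRT1 only in GABRR1.

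In 4 of the 48 genes neither mark was found at an end or inside: GABBR1, GABRE, GRIN2C and GRIN3B (8.33%, against 19.2% of all genes). The receptor records are longer than those of all genes, and this share was not split by length. GABBR1 lies in the major histocompatibility region of chromosome 6. There, 0 SIRT1 summits were found in the 1 Mb on either side, the nearest was 1204243 bp away, and H3K27ac had 8 per Mb. The files also hold 64 SIRT1 and 551 H3K27ac peaks on alternate contigs of chromosome 6; their part in the values of GABBR1 was not tested.

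Both marks were found inside 12 of the 48 genes (25%), against 20.0% of all genes. The receptor records were longer, with a median of 146 kb against 24.1 kb, and this share was not split by length. Internal H3K27ac alone was found in a smaller share of receptor genes than of all genes in each length class. No SIRT1 peak of the 563 shared a base with an H3K27ac peak. The nearest H3K27ac summit was a median of 317 kb away from them, and 11 of the 563 had 1 within 10 kb. The same values over all SIRT1 peaks are not given here. The receptor records held few H3K27ac summits (2.64 per Mb inside, against 17.8 in all genes). The lack of overlap therefore cannot be read as the 2 marks avoiding each other. The closest pair lay in GRIK2, 871 bp apart about 88 kb from the start, followed by a pair in GRID2IP 1303 bp apart.

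Other genes of the same transmitter systems, and genes of other ligand-gated ion channels, had H3K27ac at an end in shares above that of the receptor genes. These shares were below the 53.0% of all protein-coding genes, and the scaffold share was near it. Of 24 genes for the synthesis, breakdown and transport of glutamate and GABA, 7 had it at an end (29.2%, 12.6 to 51.1), with the glutamine transporter SLC38A2 at a fold of 67.9 and glutamate dehydrogenase GLUD1 at 43.8. For SIRT1, where 9.34% of all genes had a summit at an end, it was 3 of the 24 (12.5%), with the GABA transporter SLC6A11 at 2.94 and GAD1, which makes GABA, at 2.78. Of 34 genes for receptor scaffolds and auxiliary subunits, 16 had H3K27ac at an end (47.1%, 29.8 to 64.9), led by the AMPA receptor auxiliary gene CNIH3 at 74.9 and the scaffold genes HOMER3 at 68.0 and HOMER1 at 52.1. SIRT1 lay at 5 of the 34 (14.7%), with SHISA9 at 3.67 and HOMER3 at 2.94, a value also reached by GPHN and CACNG5. Of 32 other ligand-gated ion channel genes, 6 had H3K27ac at an end (18.8%, 7.21 to 36.4). Of these 5 were ATP-gated P2X channels, with P2RX4 at 52.3, P2RX1 at 21.2 and P2RX3 at 18.0, and the other was the glycine receptor gene GLRB at 7.29. SIRT1 lay at 5 of the 32 (15.6%), with CHRNA1 and GLRA3 at 2.94 each. For H3K27ac the interval of the receptor genes did not overlap that of the scaffold list, and it overlapped those of the metabolism and transport list and of the other channels. The SIRT1 intervals of all 3 lists included the share of all genes, and no difference between lists was tested.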

How the data were processed

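ChIP-seq peak lists were used for 1 H3K27ac and 1 SIRT1 library. MACS2, deepTools and hg38 were used, per the submitters' processing notes; aligner, tool versions and control were not given in the sources used here. Depth is unknown. Fold ratio, −log10 p, −log10 q (p-values and q-values) and an integer score were deposited by the authors for each peak; scores were not used. The offset of the summit gave its position.

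Summits were assigned to gene records of RefSeq GRCh38.p14, the build of hg38. Fragments at a summit were recovered from fold, taken as fragments plus 1 over background plus 1, and the −log10 p as a Poisson tail; all 95517 SIRT1 peaks were solved within 0.001, and the steps were tested on simulated data. Genes named in full are those with a summit at an end, the 10 with most internal summits per list, the 5 long genes densest in SIRT1, and, per comparison list, up to 3 genes with the highest H3K27ac fold at an end and 2 with the highest SIRT1 fold. Some members and list genes that this rule takes are not reported here by name and not drawn; the counts include them. Members, lists and tests were chosen with earlier results of these data known; flanks, CpG classes, motifs and the restriction to 4 fragments were added after the data were seen. Alternatives were other windows, overlap in place of summits, a fold of at least 4 and the 20000 strongest peaks. Tools were matplotlib 3.10.9, scipy 1.17.1, pandas 2.3.3 and numpy 2.4.6 under Python 3.11.15.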

Additional observations from a re-analysis of the deposited data

Results flagged for a closer look

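Peaks on alternate contigs of chromosome 6 entered no comparison, although GABBR1 lies in a region of that chromosome with such contigs. They numbered 551 for H3K27ac and 64 for SIRT1. They stand out because they hold signal outside every comparison made here; whether any belongs to GABBR1 was not tested.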

How the results depend on the processing

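Of 50 alternatives computed, 27 kept their value within 1.5 times or its interval and 23 moved. The share of receptor genes with SIRT1 at an end, close to that of all genes with the 1 kb window, was above it at 2500 bp (35.4%, against 21.7%). It stayed near that of all genes with overlap counted (12.5%, against 10.8%). The same held among the 20000 strongest peaks (2.08%, against 2.05%), where it rested on GRIK5 alone. The cause of the changes was not tested, apart from stricter settings keeping fewer peaks. With the 20000 strongest peaks of each list, H3K27ac lay at 0 receptor gene ends (against 43.9% of all genes) and inside 7 genes (0.801 per Mb). SIRT1 then lay at 1 gene end (GRIK5; 2.08%, against 2.05% of all genes) and inside 24 genes (9.37 per Mb). With a fold of at least 4, SIRT1 lay at 0 receptor gene ends (against 0.140% of all genes) and inside 5 genes (0.400 per Mb), and at 0 ends in each of the 3 comparison lists. With SIRT1 peaks on at least 4 fragments, a setting added after the data were seen, 1 gene end and 25 genes inside (6.01 per Mb) were left. The number of all genes with internal peaks at these stricter settings is not given here, so the falls are not results about the receptor genes.

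A window of 500 bp gave 2 receptor genes with SIRT1 at an end (4.17%, against 4.83% of all genes) and 3 of 34 scaffold genes. It gave 1 receptor gene with H3K27ac at a start (GRIK2), and overlap with the promoter window also gave 1. The share of all genes with H3K27ac at a start is not given here for these settings, so the fall is not a result about the receptor genes. A window of 2500 bp gave SIRT1 at 17 of 48 receptor genes and 9 of 24 metabolism and transport genes. It gave 8 of 34 scaffold genes and 9 of 32 other channel genes. With that window 21.7% of all genes had a SIRT1 summit at an end, and each of these lists was above that share. No paired analysis was possible because each antibody has 1 library. SIRT1 counts rest on 2 or 3 fragments in 86.5% of the peaks used, against 84.4% of all SIRT1 peaks on the primary chromosomes.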
